A study of Mus musculus with 4 samples.

Results

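Cluster 10 is a group of mouse spleen cells that the authors' clustering of RNA profiles set apart from other monocytes, macrophages and dendritic cells (DCs). By median, fewer RNA molecules were captured from its cells than from any other cluster of these cell types with at least 20 cells. The members of cluster 10 were taken from the deposited cluster number alone. It held 284 of the 6075 cells of the bundle, which is the study's name for the monocyte, macrophage, DC and DC progenitor cells among 11631 CD11b+ splenocytes. Of the 284 cells, 250 came from the GM-CSF library and 34 from the steady-state library. The GM-CSF library held 3940 bundle cells among 6804 in all, and the steady-state library 2135 among 4827.

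The study asked how granulocyte-macrophage colony-stimulating factor (GM-CSF) changes the CD11b+ cells of the spleen. RNA and antibody tags were read from the same cells by CITE-seq, in which antibodies carrying a DNA barcode report surface proteins beside the transcripts. The GM-CSF library came from mice given 3 once-daily subcutaneous injections of 10 µg GM-CSF, with cells usually taken 24 h after the last, and the steady-state library from mice without it. All mice of the study were 8 to 12 weeks old and its wild-type mice were C57BL/6, while the number of animals behind each library is not given. All cells of both conditions were sorted by flow cytometry for CD11b, and each condition gave 1 RNA library and 1 tag library. There was thus no replicate, so no test was run, and every interval covers the counting of cells or molecules only. Cells of 1 library are not replicates, and genes of cluster 10 helped to define it, so gene differences are descriptions. The antibody tags played no part in the RNA clustering. A total of 8 barcode sequences occurred in both libraries, 1 of them in a cell of cluster 10.

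Classical monocytes leave the blood, take up residence in tissue and can turn into macrophages or DCs, and GM-CSF is a cytokine that favours the DC outcome. DCs carry MHC class II, which presents peptides to CD4 T cells, and the DCs that GM-CSF induces in the spleen carry the lectin CD301b. In droplet sequencing, the number of unique molecular identifiers (UMIs) counts the RNA molecules captured from a droplet, the share from mitochondrial genes and the amount of nuclear RNA describe which parts of a cell were captured, and antibody tags describe its surface.

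Cluster 10 took a larger share of the bundle in the GM-CSF library than at steady state. It made up 250 of 3940 bundle cells there, or 6.35% (exact Clopper-Pearson 95% interval 5.60 to 7.15%), against 34 of 2135, or 1.59% (1.11 to 2.22%). Of all CD11b+ cells it was 3.67% and 0.704%. These are shares of captured cells in single libraries, so a difference between the treatments and a difference between the 2 preparations cannot be told apart. Scrublet, a caller that compares each cell with simulated doublets, marked 5 of the 250 cells (2.0%) and 0 of the 34, where a count of 0, taken as up to 3 cells, allows a share of up to 8.82%, against 4.42% and 4.33% of the other bundle cells.

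Low depth was the common feature of its members. In the GM-CSF library, the 250 cells had from 506 to 4772 UMIs with a median of 1739.5, and the 3690 other bundle cells had from 840 to 25317 with a median of 6836.5. The ratio of the medians was 0.254 (0.226 to 0.278). At steady state, the 34 cells ran from 529 to 3613 UMIs with a median of 1191.5, against 6951 in the other bundle cells, a ratio of 0.171 (0.137 to 0.226). Cluster 10 was the lowest of the 14 clusters with at least 20 cells in both libraries. The next lowest was cluster 4, with a median of 2493 UMIs under GM-CSF and 3636 at steady state. Nearly all bundle cells under 1000 UMIs belonged to cluster 10, with 59 of 61 in the GM-CSF library and 11 of 14 at steady state. Between these limits the clusters overlapped, and of the 204 GM-CSF bundle cells under 2000 UMIs, cluster 10 held 150 and cluster 4 held 30.

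**Figure D1:**
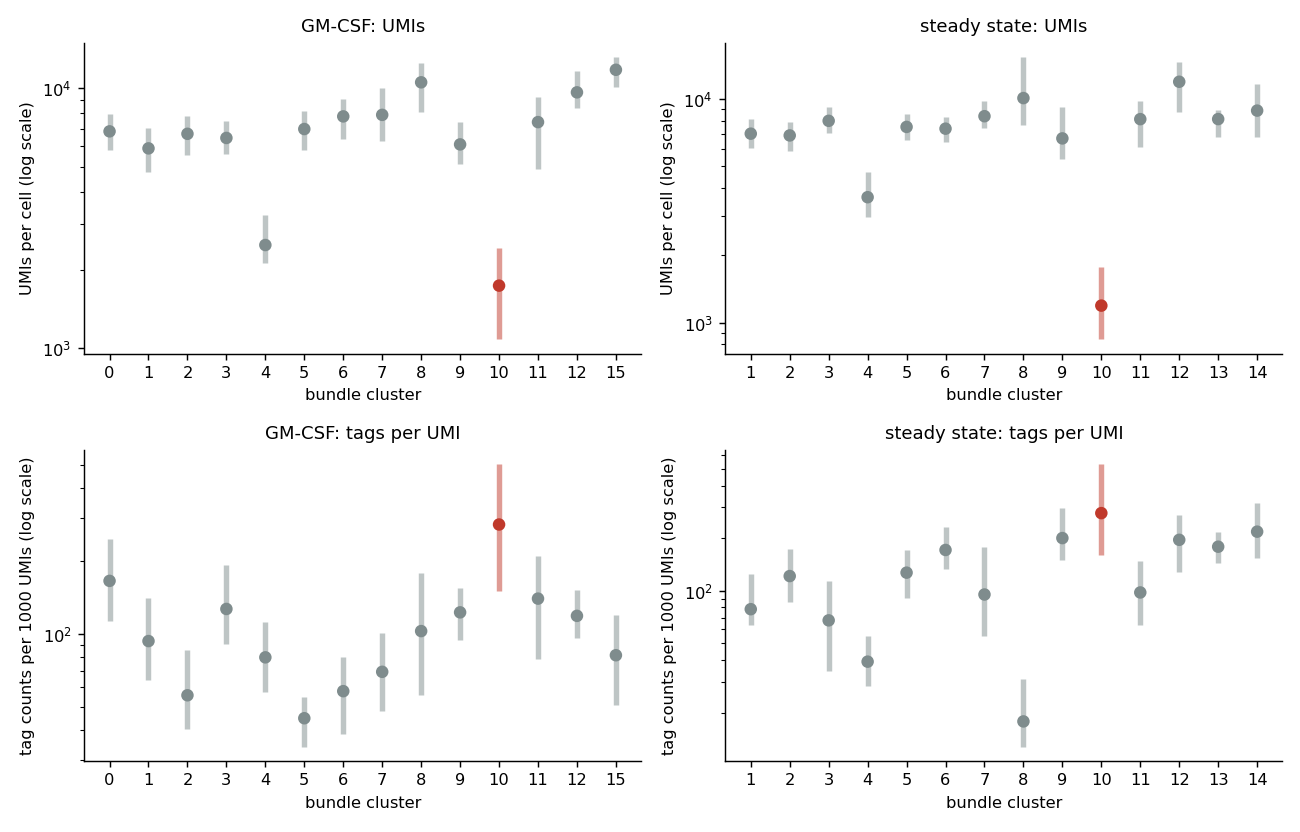
Median UMIs per cell (upper row) and median antibody tag counts per 1000 UMIs (lower row) for each bundle cluster with at least 20 cells, on log scales, with bars from the lower to the upper quartile, for the GM-CSF library (left) and the steady-state library (right). Cluster 10, in red, is lowest for UMIs and highest for tags per UMI in both libraries.

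Fewer genes were seen per cell, and at equal depth the number of genes differed by little under GM-CSF. The median cell of cluster 10 had 902 genes against 2370.5 in the other bundle cells. After each cell was thinned at random to 500 UMIs, the medians were 351 and 350 genes, a ratio of 1.0 (0.997 to 1.01). At steady state the thinned medians were 337.5 and 366 genes, a ratio of 0.922 (0.896 to 0.975), and cluster 10 was the lowest of 14 clusters. The thinned molecules of the steady-state cells thus covered fewer genes than those of the other bundle cells.

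The mitochondrial share of the molecules was more spread out in cluster 10 than in the other bundle cells together, at both ends. The 13 mitochondrially encoded genes make subunits of the respiratory chain and of ATP synthase. Under GM-CSF the median share was 4.88%, against 4.53% in the other bundle cells, a difference of 0.36 percentage points (-0.05 to 0.73). Above 10% lay 19 of the 250 cells (7.60%, 4.64 to 11.6%) but 44 of the 3690 others (1.19%), and under 1% lay 8 (3.20%) against 7 (0.190%). Both tails were therefore fuller, although the centre hardly moved. At steady state the median was 5.50% against 3.39%, and 10 of 34 cells (29.4%, 15.1 to 47.5%) but 1 of 2101 others exceeded 10%. The deposited cells had been limited by the authors to at most 15%, so any cell above that was removed before clustering. Depth moved with this measure: among the 107 other GM-CSF cells inside the UMI quartiles of cluster 10 (1079.75 to 2420 UMIs), the median was 3.50%. Of them, 4 (3.74%, 1.03 to 9.30%) exceeded 10% and 2 (1.87%, 0.227 to 6.59%) lay under 1%. Of the 8 GM-CSF cells of cluster 10 under 1%, 7 had under 1000 UMIs. Of these 107 cells, 66 belonged to cluster 4, and without them, a choice made after seeing the data, the median of the remaining 41 was 5.34%. The mitochondrial median of cluster 10 thus lay above the first of these sets and below the second.

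Gm42418 and Malat1, RNAs that do not code for protein, showed the same wide spread. Gm42418 lies at chr17:39846958-39848788 (mm10, GENCODE M21 annotation) and was the most abundant feature of cluster 10, with 17866 UMIs under GM-CSF. Its median share was 3.52% of the UMIs against 2.75% in the other bundle cells, and it ranged from 0 to 39.4% over the 250 cells against 0 to 8.84% over the others. Cells with under 1% or with 5% or more made up 52.0% of cluster 10 and 9.13% of the others. At like UMIs the share was 45.8% of 107 cells, so other shallow cells showed a like width. The gene AY036118 lies inside Gm42418 on the other strand, and reads of the pair cannot be told apart where counting ignores strand, which is not given in the sources used here. Malat1, a nuclear RNA kept close to chromatin, had a median share of 0.485% in cluster 10 against 0.793% elsewhere and 1.21% at like UMIs, but 0.418% in the 41 of those cells that were not from cluster 4. Of the cells thinned to 500 UMIs, 41 of 250 (16.4%, 12 to 21.6%) showed no Malat1, against 8.70% of the others and 9.35% of the 107 shallow cells. Without cluster 4 it was missing from 10 of the 41 shallow cells (24.4%, 12.4 to 40.3%), so the direction at like UMIs rested on cluster 4. At steady state it was missing from 7 of 34 (20.6%, 8.70 to 37.9%) and from 1.71% of the others, while the summed share of Malat1 was higher in cluster 10, with 2.90% of all UMIs against 1.53%. Some steady-state cells of cluster 10 were thus rich in this nuclear RNA while others lacked it.

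**Figure D2:**
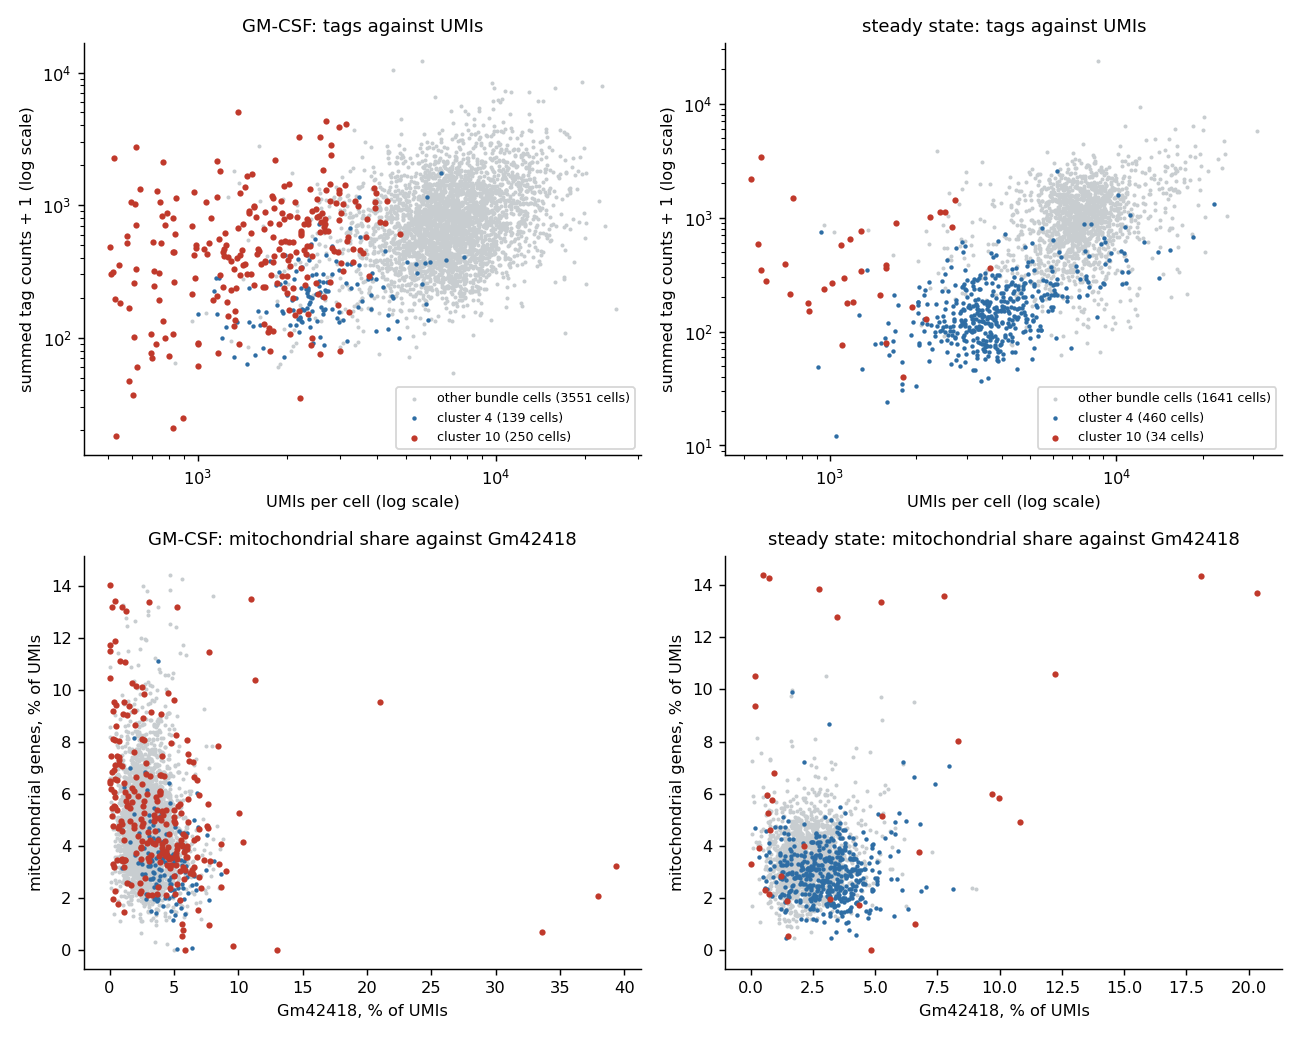
Each point is 1 bundle cell. The upper row plots summed antibody tag counts plus 1 against UMIs per cell on log scales, and the lower row plots the mitochondrial percentage of UMIs against the Gm42418 percentage. Cluster 10 (red, 250 GM-CSF cells on the left and 34 steady-state cells on the right) lies left of the other cells in UMIs, above cluster 4 (blue) in tags at like UMIs, and widely spread in the lower row.

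The surface readout fell less than the RNA readout. The 5 antibodies bind CD115, the receptor for macrophage colony-stimulating factor, CD11c, an integrin of DCs, Ly6C, which marks classical monocytes, MHC class II and CD301b. Summed over the 5 tags, the GM-CSF cells of cluster 10 had from 17 to 5026 counts with a median of 469, against a median of 697 in the other bundle cells, a ratio of 0.673 (0.614 to 0.762). At steady state the medians were 352 and 788, a ratio of 0.447 (0.268 to 0.817). Per 1000 UMIs this came to 283 tag counts against 102 under GM-CSF, 2.77 times as many (2.45 to 3.12), and to 278 against 108 at steady state, 2.57 times as many (1.95 to 4.82). These were the highest values of 14 clusters in each library, followed by 166 in cluster 0 under GM-CSF and by 218 in cluster 14 at steady state. Cells with few tags were present too, with 22 of 250 (8.80%) under 100 counts against 0.705% of the other bundle cells.

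Depth and tags moved together among the GM-CSF cells of the cluster. The 59 GM-CSF cells under 1000 UMIs had a median of 318 summed tag counts, the 91 cells with at least 1000 but under 2000 UMIs had 426, and the 100 cells with 2000 or more had 634.5. The deepest of these classes came close to the median of 697 of the other bundle cells. In the steady-state library the same classes had medians of 344, 280 and 1013 in 11, 16 and 7 cells, so the middle class was lowest. The 107 other cells of like UMIs had a median of 209 tag counts, so cluster 10 was 2.24 times as high (2.05 to 2.54) as other cells of its depth. Without cluster 4, whose own median was 209, the ratio was 1.31. At steady state 22 cells of like UMIs, 18 of them from cluster 4, had a median of 93.5 against 352 in cluster 10, but the 4 that were not from cluster 4 had 761. The steady-state direction therefore rested on cluster 4.

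By single tag, cluster 10 kept the order of the bundle under GM-CSF. MHC class II was the strongest tag, with a median of 183 counts against 296 in the other bundle cells. CD11c followed with 118 against 166. CD115 had 29 against 37, Ly6C 19 against 20 and CD301b 18 against 16. The first 3 tags were thus lower and the last 2 differed by at most 2 counts. At steady state Ly6C led, with a median of 204.5 against 501, and the other 4 tags had medians of at most 13.5 in cluster 10. The tags differed with the library from which the cells came: the GM-CSF cells carried mostly MHC class II and CD11c, and the steady-state cells mostly Ly6C.

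At full depth, tags and transcripts of the same protein went together in single cells of cluster 10. The 47 GM-CSF cells with a UMI of Mgl2, which encodes CD301b (chr11:70130329-70137550), had a median of 124 CD301b tags, and the 203 without one had 14. No steady-state cell of the cluster had a Mgl2 UMI, as against 26 of 2101 other steady-state bundle cells. For H2-Aa, a chain of MHC class II, the 233 cells with a UMI had 198 MHC class II tags and the 17 without had 55. Cells with a UMI of Itgax, which encodes CD11c, had 185 CD11c tags and cells without had 96. The same direction held for Ly6c2 and Ly6C, with 79 tags in 11 cells against 19 in 239, and for Csf1r and CD115, with 40 in 82 cells against 27 in 168. Deeper cells are more likely to show both, and the part of depth in these differences was not tested beyond thinning. At 500 UMIs the CD301b medians were 118 in 14 cells and 16.5 in 236, and the MHC class II medians 204 in 195 cells and 105 in 55. The CD11c medians came closer, with 135 in 25 cells and 118 in 225, and for Ly6C only 3 cells had a UMI (40 against 19). The CD115 medians turned to 16 in 28 cells and 31 in 222.

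The authors' tag gates placed cluster 10 cells in the same classes as the rest of the bundle. The study calls cells with a high CD115 tag CD115hi and divides them into P-I, the classical monocytes, P-II, the non-classical monocytes, P-III and P-IV, the last being the CD301b+ GM-CSF-induced DCs (GMiDCs). Of the 250 GM-CSF cells, 45 were CD115hi (18.0%, 13.4 to 23.3%), against 17.3% of the other bundle cells. P-IV held 20 of them (8.0% against 7.94%), P-I 14 (5.60% against 4.69%) and P-III 10 (4.0% against 3.14%), and P-II held none, which by the same limit of 3 cells allows up to 1.20%, against 8 of 3690. At steady state 4 of 34 were CD115hi (11.8%, 3.30 to 27.5%) against 8.52%. In each class the share of the other cells lay inside the counting interval of cluster 10. Inside P-IV the surface was weaker for 2 tags, with CD301b medians of 80.5 against 242 and MHC class II medians of 383 against 530, while CD11c had 296.5 against 299. The Mgl2 level summed over these P-IV cells was 233 counts per 1000000 UMIs (CPM) against 455. It rested on 20 cells with a median of 2019 UMIs, so on few Mgl2 molecules, and no interval was taken.

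The whole-library cell types were less evenly represented than the tag gates. Among the 250 GM-CSF cells, 165 (66.0%, 59.8 to 71.9%) carried the label MoMacDC_c2, against 35.4% of the other bundle cells, and 69 (27.6%) carried MoMacDC_c1 against 34.5%. MoMacDC_c4 took 4.80% against 15.8%, and progenitor DC took 1.20% against 10.6%. At steady state 16 of 34 cells were MoMacDC_c2 and 13 were MoMacDC_c1, where the other cells had 7.66% and 60.2%. Both libraries thus had more MoMacDC_c2 in cluster 10 than outside it. These labels come from another clustering of the same RNA, so they are not an independent readout.

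Single cells of cluster 10 were compared with the summed profile of every other bundle cluster of their library, after all cells had been thinned to 500 UMIs. Most GM-CSF cells lay nearest to 4 clusters: 80 to cluster 1 (32.0%), 55 to cluster 3 (22%), 47 to cluster 0 (18.8%) and 30 to cluster 2 (12%), together 212 of 250 (84.8%, 79.7 to 89.0%). Cluster 9 took 11, clusters 5, 7 and 8 took 6 each, and cluster 4, the other shallow cluster, took 3 (1.20%). As a reference, 70.5% of 3662 cells of the other clusters came back to their own cluster at this depth. When cluster 10 was offered as a profile of its own, leaving out the cell at hand, 89 of 250 cells (35.6%, 29.7 to 41.9%) came back to it and 28 of the 3662 reference cells went to it. By single cluster the reference ran from 32.6% in cluster 5 to 97.0% in cluster 15, so cluster 5 was lower still. The 34 steady-state cells were spread over 10 profiles, led by cluster 5 with 9, cluster 4 with 7 and clusters 2 and 9 with 4 each, and 7 of 34 (20.6%) came back to their own.

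The antibody tags, which did not enter this placement, differed between cluster 10 cells by where their RNA fell. The CD301b median was 84 in the 47 cells nearest to cluster 0 and 49 in the 55 nearest to cluster 3, but 15 in the 80 nearest to cluster 1 and 6.5 in the 30 nearest to cluster 2. The cells of those clusters themselves had medians of 187, 103.5, 11 and 10 in the same order. The MHC class II medians of the placed cells were 286, 208, 260.5 and 53, against 399.5, 393, 271 and 100 in the clusters. The Ly6C tag was highest in the cells nearest to cluster 2, with 37.5 against 77 in cluster 2 itself, and between 12 and 25 in the other 3 groups. For each of these tags the group with the highest and the group with the lowest median were the same in cluster 10 as in the 4 clusters, and cells nearest to cluster 1 had CD115 medians of 56 against 52 and CD11c medians of 146.5 against 131, at 1732 against 5872 UMIs. Cells nearest to clusters 0, 2 and 3 had lower CD301b, MHC class II and CD115 medians than the cluster they resembled.

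**Figure D3:**
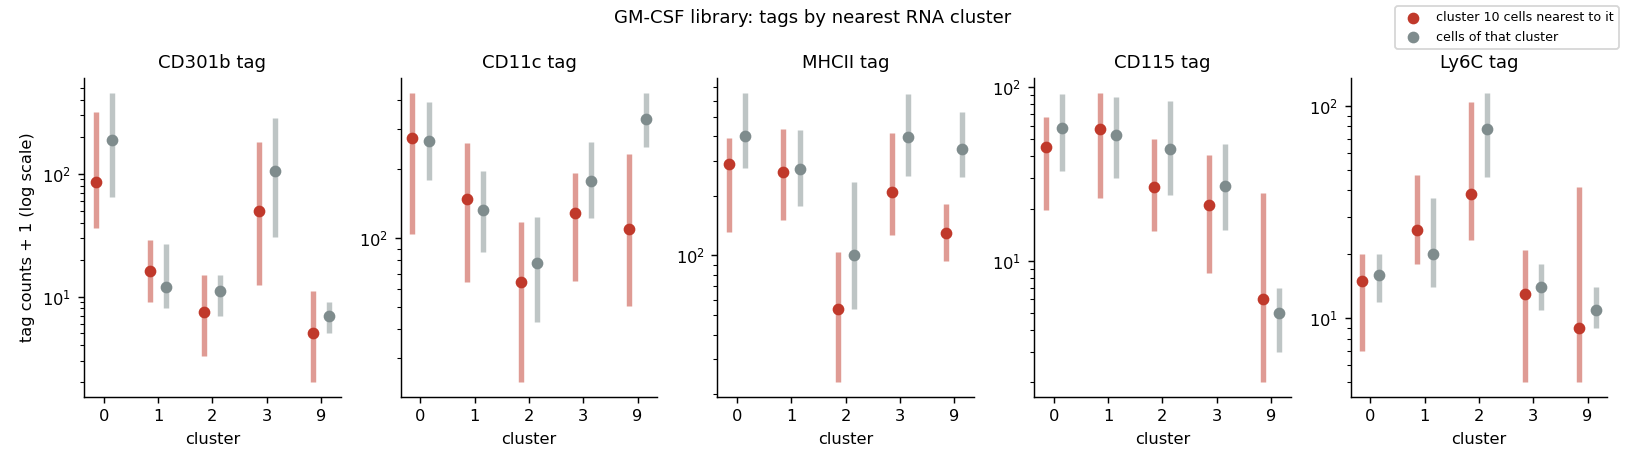
Median antibody tag counts plus 1 (log scale, bars from lower to upper quartile) for GM-CSF cells of cluster 10 grouped by the bundle cluster nearest in RNA (red) and for the cells of that cluster (grey). The red medians follow the grey ones for CD301b, high at clusters 0 and 3 and low at clusters 1, 2 and 9, and lie below them for CD11c and MHC class II at cluster 9.

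Summed over cells, the profile of cluster 10 under GM-CSF was close to that of several clusters. Across 1433 genes, the correlation of log2(CPM + 10) was 0.963 with cluster 1, 0.954 with all other bundle cells, 0.951 with cluster 0, 0.949 with cluster 3, 0.933 with cluster 11 and 0.932 with cluster 2. Clusters 7, 8 and 5 followed with 0.918, 0.917 and 0.913. It was lower with cluster 4 (0.873), with cluster 12, the highest in MHC class II tags (0.837), and with granulocytes (0.495). Genes are not independent replicates and share library and depth, so these are descriptions without a test.

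The most abundant transcripts of cluster 10 were common to the bundle. Under GM-CSF, Gm42418 took 3.92% of its UMIs against 2.66% in the other bundle cells, Tmsb4x, an actin-binding peptide, 2.04% against 2.63% and Actb, actin itself, 1.35% against 1.07%. Then came mt-Co1, mt-Co3, mt-Co2 and mt-Atp6 with 1.21%, 1.17%, 0.964% and 0.913%, Tpt1, a small abundant cytosolic protein, with 0.821%, Actg1, a second actin, with 0.814% and Malat1 with 0.776%. Genes of the sorted population were present: Itgam, which encodes CD11b, had 84 UMIs or 184 CPM against 152, Csf1r had 235 against 186 CPM, and Ptprc, the leukocyte antigen CD45, 1465 against 1179 CPM. None of these 3 differed by 2-fold.

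Few genes differed by 2-fold from the other bundle cells. The cluster held 455425 UMIs in the GM-CSF library, and 1588 genes had at least 50 UMIs there or would have had them at the level of the other cells. Of these, 17 (1.07%) were at least 2-fold higher and 41 (2.58%) at least 2-fold lower in CPM, with 0.5 counts added to each sum. For 5 and 22 of them the whole counting interval lay past 2-fold. The median ratio over the genes was 1.07. In the 48037 UMIs at steady state, 149 genes could be compared, and 4 (2.68%) were higher and 4 (2.68%) lower.

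Of the higher genes, the top one rested on few cells. Gm26917 (chr17:39843013-39846341), a noncoding RNA next to Gm42418, had 185 UMIs or 406 CPM against 70.8 CPM, 5.75 times as high (4.91 to 6.68), but 111 of its UMIs came from 3 cells. Whether it shares reads with the neighbouring Gm42418 was not tested. Gm10263, a processed pseudogene of 300 bases, stood at 127 against 31.5 CPM, a ratio of 4.07 (3.04 to 5.27), and its reads may belong to its parent gene. Slc39a1, a zinc importer of the cell surface, had 54 UMIs in 49 cells, 119 against 39.0 CPM, a ratio of 3.07 (2.27 to 4.0). Copz1, a coat protein of Golgi vesicles, was 2.59 times (2.05 to 3.21), Lbh, a transcription regulator, 2.53 times (2.12 to 2.97), Sgk1, a kinase induced by serum and glucocorticoids, 2.35 times (1.77 to 3.01) and Ids, a lysosomal sulfatase, 2.33 times as high (1.78 to 2.95). Gatm, an enzyme of creatine synthesis, followed at 2.29 times (1.77 to 2.87), Marveld1 at 2.19 times and Tmem30a, a subunit of lipid flippases, at 2.16 times. Apart from Gm26917, at most 14 UMIs of any of these 10 genes came from the 3 cells with most of them. All of the 10 but Lbh passed the minimum only through their own UMIs in cluster 10, so they could only come out higher. Several of these calls ended at like UMIs: 5 of the 10 genes were still at least 2-fold higher there, and without cluster 4 only Lbh (2.03) and Marveld1 (3.70) were. Slc39a1 stood at 1.22 and 0.755 in these 2 sets, Sgk1 at 1.13 and 1.61 and Gatm at 2.32 and 0.877. The sets held 208874 and 78823 UMIs, where 3 UMIs come to 14.4 and 38.1 CPM. Ratios of single genes to these sets thus rest on few UMIs, and no interval was taken for them.

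The 10 lowest genes were Hist1h1b, Birc5, Hist1h2ap, Ube2c, Mki67, Top2a, Stmn1, H2afx, S100a9 and 2810417H13Rik. Of these, only S100a9 reached the minimum through its own UMIs in cluster 10. The rest were kept only through their level outside the cluster and could only come out lower. Genes of dividing cells among them were Hist1h1b, a linker histone, with 1 UMI and a ratio of 0.017 (0.00028 to 0.063), Birc5, which encodes survivin, a protein of dividing cells, with 13.2 against 192 CPM (ratio 0.074), and Ube2c, Mki67 and Top2a with ratios of 0.10, 0.139 and 0.148. The neutrophil calprotectin genes S100a9 and S100a8 had 268 and 261 CPM against 1419 and 1164, ratios of 0.19 and 0.225. Both groups depended on which cells were compared. Summed over Mki67, Top2a, Birc5, Ube2c, Stmn1 and Hist1h1b, cells of clusters 7, 8 and 12 had 24.7, 55.3 and 58.2 UMIs each. Without clusters 11, 14 and 15 the ratios of S100a9 and S100a8 were 1.08 and 1.26.

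Against clusters 0, 1, 2 and 3 alone, the 2054 cells that cluster 10 cells most resembled, fewer genes differed. This comparison was added after the nearest clusters had been seen, and the genes named from it were chosen after their values were seen. Of 1553 genes, 10 (0.644%) were at least 2-fold higher and 18 (1.16%) at least 2-fold lower, and 845 lay within 25% of equal. Of the 17 genes higher against all other bundle cells, 7 were higher here too. Of the 41 lower, 13 were lower here too, but 21 did not pass the minimum here and could not be called. Clusters 0 to 3 are part of the other bundle cells, so the 2 comparisons share cells. Higher genes were again Gm26917 (ratio 6.09), Gm10263 (3.71), Slc39a1 (2.50), Copz1 (2.38), Sgk1 (2.35), Lbh (2.21) and Tmem30a (2.10). S100a8 and S100a9 now stood higher, at 3.15 and 2.85 times, and so did Fn1, fibronectin, a gene of classical monocytes, at 2.13 times. Apart from Lbh and Fn1, these higher genes passed the minimum only through their own UMIs in cluster 10 and could only come out higher. The cycling genes turned as well, with 14 UMIs of Mki67 giving 4.58 times (2.34 to 7.85) and 16 of Top2a 6.82 times (3.61 to 11.6) the level of the 4 clusters.

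The genes lower than in clusters 0, 1, 2 and 3 came from several families. Ubb, one of the polyubiquitin genes, had 219 UMIs, 481 against 1274 CPM, a ratio of 0.378 (0.329 to 0.431). S100a4 and S100a11, small calcium-binding proteins, had ratios of 0.457 and 0.433, Ifitm2, an interferon-induced membrane protein, 0.380, and Fabp5, a fatty acid carrier, 0.479. Bcl2a1b, of the anti-apoptotic Bcl2 family, had 33 UMIs and a ratio of 0.353 (0.239 to 0.489), but it has near-identical paralogues among which reads may be split. All 6 of these genes were also at least 2-fold lower than in all other bundle cells, but those include clusters 0 to 3, so this is no separate support. Bcl2a1b and Ifitm2, with 33 and 42 UMIs, were kept only through the comparison cells and could only come out lower. Cst3, a secreted cysteine protease inhibitor, stood at 1166 against 2393 CPM (0.488), Cd52, a short surface glycoprotein, at 0.486 and Clec4b1, a C-type lectin, at 0.377 (0.233 to 0.556), while against all other bundle cells these 3 had ratios of 0.522, 0.529 and 0.527. Clec4b1, with 23 UMIs, was likewise kept only through the comparison cells.

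Transcript length moved with the ratios. Of 1576 genes kept in this step, 1533 (97.3%) had a transcript in GENCODE M21. In 4 equal groups from the shortest to the longest by longest transcript, the median ratio to the other bundle cells was 0.833, 1.03, 1.18 and 1.24. Against clusters 0, 1, 2 and 3 it was 0.867, 1.03, 1.16 and 1.20, and without the ribosomal protein genes 0.858, 1.05, 1.16 and 1.20. Short transcripts were thus lower and long ones higher in cluster 10 against the deeper cells. Against the 107 other cells of like UMIs the order was the other way, with 0.975, 0.939, 0.912 and 0.894, but without cluster 4 there was no order, with 0.957, 0.912, 0.961 and 0.939. The part of length or of depth in the gene differences was not tested.

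**Figure D4:**
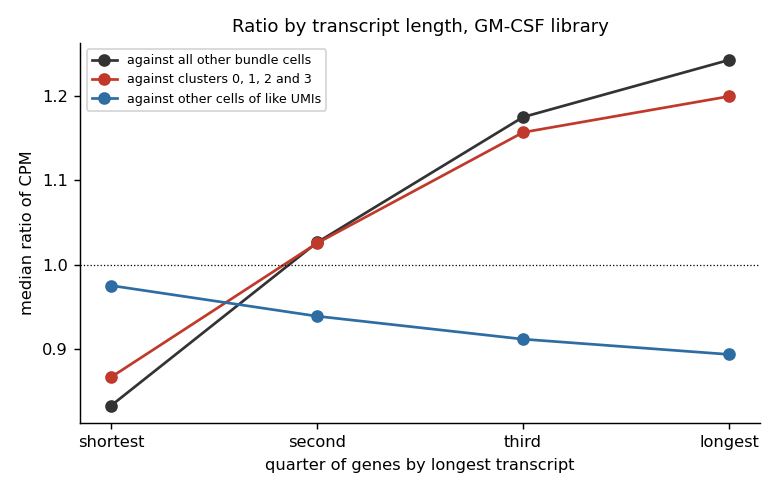
Median ratio of CPM in cluster 10 to the comparison cells (linear axis that does not start at 0) for 4 equal groups of genes by their longest annotated transcript, GM-CSF library. The ratio rises with length against all other bundle cells (black) and against clusters 0 to 3 (red), and falls against other cells of like UMIs, most of them from cluster 4 (blue).

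Among lists with genes that passed the minimum, those of neutrophil and of replication genes stood lowest against the other bundle cells. Replication and mitosis genes stood at 2174 against 5713 CPM, a ratio of 0.380 (0.357 to 0.405), but at 1.10 times the level of clusters 0, 1, 2 and 3. Against the other bundle cells 6 of 8 kept genes were at least 2-fold lower, beside 2.58% of all genes. Mki67, Top2a, Birc5, Ube2c and Stmn1 were kept only through their level in those cells and could only come out lower. Against the 4 clusters, 3 genes were kept and none was 2-fold lower. Antigen presentation genes were present at levels near those of the bundle: the 7 MHC class II genes had 19619 CPM against 23262, a ratio of 0.843 (0.826 to 0.861), and none of the 7 differed by 2-fold. H2-Aa had 4291 against 4477 CPM, H2-Ab1 3704 against 4649, and Ciita, the master regulator of these genes, 204 against 196. Against clusters 0, 1, 2 and 3 the list stood at 0.693, and against the 107 other cells of like UMIs, most of them from cluster 4, at 2.50. The GM-CSF-induced DC list (8 genes) had a ratio of 1.16 (1.06 to 1.26) to all other bundle cells and 0.766 to clusters 0, 1, 2 and 3, but 5.49 (4.05 to 7.62) to other cells of like UMIs and 2.45 to those without cluster 4. In it, Mmp12, a macrophage elastase, had 266 against 155 CPM (1.72), Fgfr1, a growth factor receptor, 160 against 113 (1.43), Cd209a, a DC lectin, 285 against 220 (1.30) and Mgl2 180 against 219 (0.828). The 5 of the 8 genes that passed the minimum had a median ratio of 1.30, beside 1.07 over all genes, and none was 2-fold changed.

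Lists of mitochondrial, ribosomal, stress, glycolysis and lysosome genes moved by less than 1.5-fold under GM-CSF. The mitochondrially encoded genes stood at 1.15 times (1.14 to 1.17) the level of the other bundle cells, with 1 of 12 kept genes, mt-Nd3, past 2-fold (804 against 396 CPM). At steady state they stood at 1.93 times (1.87 to 2.0), with 2 of 8 past 2-fold, mt-Cytb at 2.25 and mt-Nd4 at 2.11. The cytosolic ribosomal protein genes had 0.941 times under GM-CSF, with none of 80 past 2-fold. Immediate early genes, which respond to handling and stimulation within minutes, had 1.20 times, heat shock genes 0.925 times and the p53 and apoptosis list 1.15 times. In that last list 1 of 3 kept genes passed 2-fold, Bcl2l11, which encodes the death-promoting protein Bim, with 149 against 72.8 CPM (2.06, 1.59 to 2.61). Bcl2l11 was kept only through its own UMIs in cluster 10 and could only come out higher. At like UMIs Bcl2l11 stood at 2.03, and at 1.39 without cluster 4. Glycolysis genes were lower at 0.759 times, with Eno1 at 0.518 and Gapdh at 0.645 but none of 8 called. Lysosome genes were higher at 1.33 times, mostly through Psap, the precursor of the saposins that help degrade lipids, at 7059 against 4490 CPM (1.57, 1.52 to 1.63), while Cd68, a lysosomal membrane protein, stood at 0.529. Against other cells of like UMIs the lysosome list stood at 1.02 (0.971 to 1.08), and at 1.05 (0.968 to 1.13) without cluster 4.

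**Figure D5:**
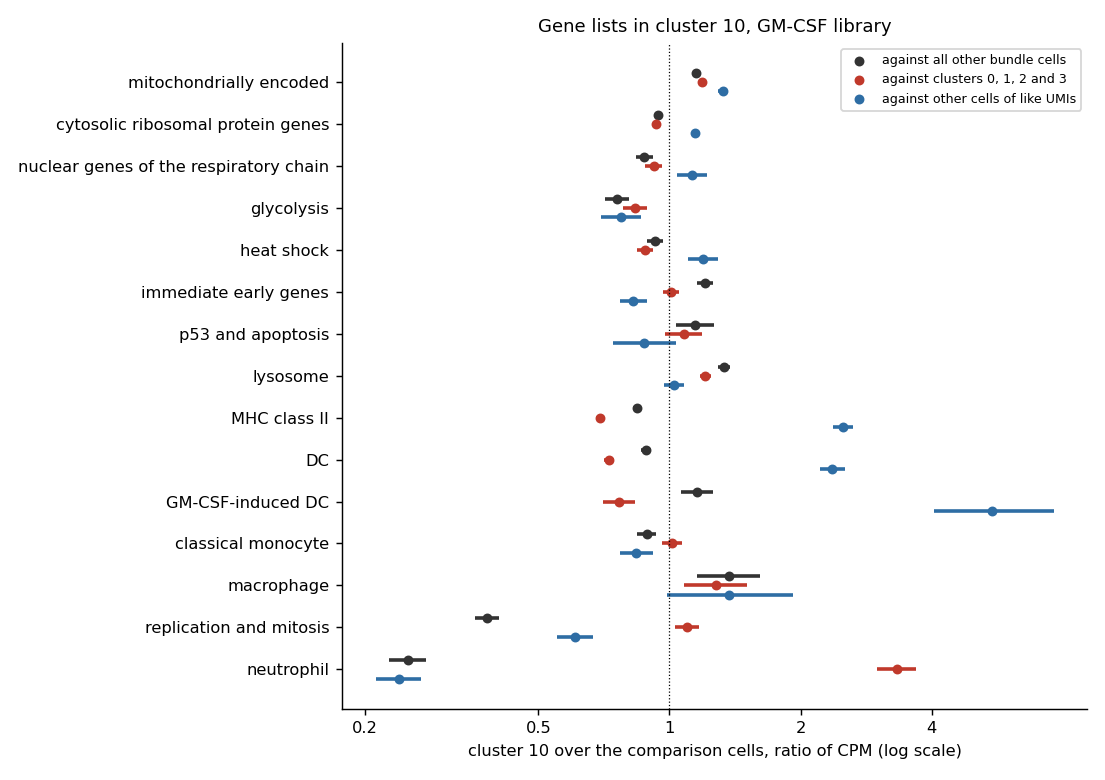
Ratio of the summed CPM of each gene list in cluster 10 to that in the comparison cells, GM-CSF library, on a log scale, with 95% counting intervals as bars. Points are against all other bundle cells (black), clusters 0 to 3 (red) and the 107 other cells of like UMIs (blue), and MHC class II, DC and neutrophil lists lie on different sides of 1 depending on the comparison.

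Markers of other cell types ranged from absent to a few UMIs per cell. Erythroid, platelet and basophil markers had no UMI in the 250 GM-CSF cells, B cell markers had 1, T cell and eosinophil markers 2 each and NK cell markers 15. Plasma cell markers had 104 UMIs in 79 cells, 1.09 times the level of the other bundle cells. All 10 neutrophil markers were detected, with 419 UMIs in all or 1.68 per cell, in 166 cells, and 121 of these UMIs lay in 3 cells. The other clusters ran from 1.26 per cell in cluster 4 to 1891 in cluster 15, with a median of 2.28, and 4 of 13 were below cluster 10. Of the 6 neutrophil markers kept, all 6 were at least 2-fold lower than in the other bundle cells together, beside 2.58% of all genes. Among them Camp, Retnlg and Lcn2, with 34, 23 and 28 UMIs, were kept only through their level in those cells. Their direction was thus fixed by the minimum. The summed list was 3.32 times as high as in clusters 0, 1, 2 and 3. Macrophage markers stood at 1.37 times (1.16 to 1.61) the other bundle cells, with C1qa, C1qb and C1qc at 1, 2 and 2 UMIs. At steady state the neutrophil list had 40 UMIs in 34 cells, and S100a9 stood at 0.089 and S100a8 at 0.26 times the other cells. The part of free RNA from other cells in these levels was not tested.

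Cell cycle calls in cluster 10 rested on few transcripts. The deposited phase was S or G2M for 90 of 250 cells (36%, 30 to 42.3%), against 36% of the other bundle cells, 14% of clusters 0, 1, 3 and 5 and 93.1% of clusters 7 and 8. The called cells of cluster 10 had a median of 5 UMIs of all phase genes together, and those of the other clusters 72. Mki67, Top2a, Birc5, Ube2c, Stmn1 and Hist1h1b, which mark dividing cells, had 75 UMIs in all, or 165 CPM, against 40.9 to 73.0 CPM in clusters 0 to 3 and 5320 CPM in cluster 8. Per cell this was 0.300 UMIs, against 0.244 to 0.488 in clusters 0 to 3, whose cells were deeper. Of the 75, 66 lay in the 90 called cells (451 CPM) and 9 in the 160 cells called G1 (29.1 CPM), and the 10 cells with 3 or more were all among those called. The calls and these transcripts thus went together, and Mki67, Top2a, Birc5 and Ube2c are themselves among the genes that the calls use. After thinning to 500 UMIs and scoring again, 40.4% of cluster 10 and 48.9% of the other cells were called. At steady state the deposited share was 50% (32.4 to 67.6%) against 23.6%, with 10 UMIs of the 6 genes in 2 cells.

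Between the 2 libraries, more genes of cluster 10 passed 2-fold. Of 1607 genes with at least 50 UMIs over both, 254 (15.8%) were at least 2-fold higher and 147 (9.15%) at least 2-fold lower in the GM-CSF cells. In the other bundle cells the same genes gave 86 (5.35%) and 103 (6.41%). The steady-state sum was shallow, and 158 of the 254 genes had 3 or fewer UMIs there. Where the whole counting interval lay past 2-fold, 18 genes were higher and 34 lower, and 18 and 33 of them went the same way in the other bundle cells. The exception, named after its value was seen, was Hmgb2, a chromatin protein, at 0.313 in cluster 10 and 1.28 in the others. Those of the 18 higher genes without a steady-state UMI passed the minimum only through the GM-CSF sum and could only come out higher.

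The genes higher under GM-CSF included markers of GMiDCs. Cd24a, a small surface glycoprotein of DCs, had 145 UMIs in the GM-CSF cells and none in the 34 steady-state cells, at least 5.10-fold higher against a limit of 3 counts in the steady-state sum. Mmp12 was at least 4.25-fold higher with 121 UMIs, Lpl, a lipoprotein lipase, at least 3.13-fold with 89, Mgl2 at least 2.88-fold with 82, Dok2, an adaptor of kinase signalling, at least 2.85-fold with 81, and Lta4h, of leukotriene synthesis, at least 2.78-fold with 79. Olfm1 had 312 UMIs against 1, a ratio of 22 (5.86 to 1304). Dap, Shtn1 and Fgfr1 completed the 10 highest, at least 2.67-, 2.60- and 2.57-fold higher. All of these 10 but Olfm1 had no steady-state UMI, so their direction was fixed by the minimum. In the other bundle cells the ratios of Cd24a, Mmp12 and Mgl2 were 7.31, 11.3 and 33.1.

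The genes lower under GM-CSF included several of monocytes. Apoe, a lipid carrier, had 7 UMIs under GM-CSF and 56 at steady state, 15.4 against 1166 CPM, a ratio of 0.014 (0.0051 to 0.029). Ccl5, a chemokine, had 8 and 42 UMIs (0.021), and Ly6c2, of classical monocytes, 13 and 38 (0.037, 0.018 to 0.069). Apoe, Ccl5 and Ly6c2 passed the minimum only through the steady-state sum and could only come out lower. Pou2f2, Lst1, Gm26740 and Fos had ratios of 0.129, 0.184, 0.185 and 0.186. Lyz2, lysozyme, stood at 2457 against 13406 CPM (0.183, 0.166 to 0.202), and Cx3cr1 and Nr4a1, the fractalkine receptor and a transcription factor of non-classical monocytes, at 0.191 and 0.204. The other bundle cells gave 0.018, 0.086, 0.10, 0.233, 0.143 and 0.098 for Apoe, Ccl5, Ly6c2, Lyz2, Cx3cr1 and Nr4a1. These ratios set 1 library against another, so treatment and preparation cannot be told apart.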

How the data were processed

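CD11b+ splenocytes of 2 conditions were measured by CITE-seq, with 1 RNA library and 1 tag library each. The authors counted UMIs with Cell Ranger 3.0.2 on mm10, removed cells outside 200 to 5000 genes or above 15% mitochondrial UMIs, integrated both libraries on 2000 variable genes each and clustered with Seurat 3.6.0. The deposited tables hold raw UMI counts of 27998 genes and raw tag counts for 11631 cells, the mitochondrial percent, the cell cycle score and phase, clusters and tag gates. The cluster members, gene lists and comparisons were chosen with earlier results of these data known.

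Counts were summed over cells and expressed as CPM, with 0.5 counts added to each sum for ratios. Genes needed 50 UMIs in cluster 10, observed or expected from the other cells, and a 2-fold ratio. Cells were thinned to 500 UMIs for comparisons across depth. Intervals are exact at 95% (Clopper-Pearson for shares, Poisson for sums, order statistics for medians) and cover counting error only, and those of median ratios carry only the median of cluster 10. A sum with no UMI was set to 3 counts for bounds. Depth per cell ranged from 506 to 4772 UMIs in GM-CSF cells of cluster 10 and from 529 to 3613 at steady state. Named genes were the 10 highest and 10 lowest ratios of each comparison, the 10 most abundant genes and members of the lists described, apart from 1 gene that is not reported here. Doublets were called with Scrublet and left in. Alternatives were another minimum, pseudocount, depth range and comparison set. Scripts used Python 3.11.15, numpy 2.4.6, scipy 1.17.1, pandas 2.3.3 and scanpy 1.11.5, and the counting steps were tested on simulated data.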

Additional observations from a re-analysis of the deposited data

How the results depend on the processing

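No paired analysis was possible because each condition had 1 library, no test was run and the labels give no replicate numbers.

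The choice of comparison cells and of the count minimum moved many results. With cells under 1000 UMIs left out, cluster 10 was 4.92% of the bundle under GM-CSF and 1.08% at steady state, and of all CD11b+ cells it was 3.67% and 0.704%. Against other cells in the UMI quartiles of cluster 10, the mitochondrial difference under GM-CSF became 1.38 percentage points. With cluster 4 left out as well (added after seeing the data) it became -0.46 points. At steady state that second set was only 4 cells, and the difference was -1.23 points (-2.98 to 2.63). The ratio of summed tags turned to 2.24 and 1.31 in those 2 sets under GM-CSF, and to 3.76 in the first at steady state. The CD11c ratio under GM-CSF turned to 1.30 and 1.51, and to 1.05 as a share of all tags, the MHC class II ratio to 6.78 and 1.61, and the Ly6C ratio at steady state to 6.93 in the first set.

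The counts of 17 higher and 41 lower genes under GM-CSF became 68 and 136 with a minimum of 20 UMIs, 4595 and 1013 with no minimum, 80 and 192 within the UMI quartiles, 65 and 187 there without cluster 4, 2 and 6 with every cell thinned to 500 UMIs, and 10 and 18 against clusters 0, 1, 2 and 3. They became 8 higher without cluster 10 cells under 1000 UMIs and 64 lower with both libraries pooled. At steady state, 4 higher and 4 lower became 13 and 13 with a minimum of 20, 7739 and 877 with none, 9 and 18 within the quartiles, 21 and 54 there without cluster 4, 1 and 0 thinned, 22 and 64 pooled, and 2 lower without clusters 11, 14 and 15. The 21 and 54 were counted against only 4 cells with 4997 UMIs. No replicate test stands behind any of these counts. Between the libraries, 254 and 147 became 571 and 548 with a minimum of 20, 18 and 314 with a pseudocount of 5, and 61 and 35 thinned. The share nearest to clusters 0 to 3 was 91.1% at 1000 UMIs per cell and 74.8% with Spearman's correlation.

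Directions that turned within the quartiles without cluster 4 were Slc39a1 (0.755) and Gatm (0.877), against 41 cells with 78823 UMIs and without intervals. Against clusters 0, 1, 2 and 3 they were Birc5 (7.25), Hist1h2ap (1.04), Ube2c (2.65), Mki67 (4.58), Top2a (6.82), Stmn1 (3.13), H2afx (1.13), 2810417H13Rik (16.6), S100a9 (2.85) and S100a8 (3.15), and without clusters 11, 14 and 15 S100a9 (1.08) and S100a8 (1.26). Apart from S100a9 and S100a8, the genes that turned against clusters 0, 1, 2 and 3 did not reach the minimum there. Lists that turned against clusters 0 to 3 were classical monocyte (1.02), GM-CSF-induced DC (0.766), neutrophil (3.32) and replication and mitosis (1.10). Within the quartiles under GM-CSF they were DC (2.36), cDC2 (0.867), ribosomal protein (1.14), immediate early (0.826), heat shock (1.19), p53 and apoptosis (0.875), actin and cytosol (1.10), MHC class II (2.50) and nuclear respiratory chain genes (1.13), and at steady state classical monocyte (1.98), ribosomal protein (1.14) and nuclear respiratory chain genes (1.13). The cause was not tested in any of these cases. Of the remaining settings, 43 and 213 gave values near the reported ones, for the main measures and for single genes, tags and lists, and 105 moved a single gene, tag or list without turning it.

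The 34 steady-state cells limit what can be read there: a gene needs 62.5 CPM to reach 3 UMIs in their sum, against 6.59 CPM under GM-CSF. Cells of like UMIs were mostly from cluster 4, so depth and the identity of cluster 4 cannot be told apart in that comparison.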

Other observations

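Monocyte and DC subset genes in the GM-CSF cells of cluster 10 stood mostly near the levels of the other bundle cells, apart from low counts of DC progenitor genes. The 8 classical monocyte genes summed to 3136 against 3540 CPM, a ratio of 0.886 (0.840 to 0.933), and none of the 4 that passed the minimum differed by 2-fold. Among them Ccr2, the receptor that draws monocytes out of the bone marrow, had 514 against 469 CPM, Fn1 323 against 245 and Chil3, a chitinase-like protein, 154 against 270. F13a1, a coagulation factor chain of monocytes, had 0 UMIs against 27.7 CPM. The non-classical monocyte list had 173 UMIs and a ratio of 1.10 (0.941 to 1.28), with none of its 8 genes reaching the minimum. The cDC2 list stood at 1.34 times (1.18 to 1.51), of which 274 of 278 UMIs were Sirpa, a receptor for CD47 that other myeloid cells carry too. In the cDC1 list 74 of 75 UMIs were Wdfy4, while Xcr1 and Clec9a, which define cDC1, had none. The DC progenitor list had 4 UMIs, all of Kit, or 8.78 against 28.8 CPM, a ratio of 0.305 (0.083 to 0.784).

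The remaining lists moved little under GM-CSF against all other bundle cells. Type I interferon response genes stood at 0.755 times (0.646 to 0.877), nuclear genes of the respiratory chain at 0.875 times (0.838 to 0.914), actin and cytosol genes at 0.944 times, survival genes at 0.963 times, nuclear RNAs at 0.932 times, plasmacytoid DC markers at 0.928 times and stroma and endothelium markers, with 15 UMIs, at 1.17 times (0.654 to 1.95). The nuclear RNA list depended on the comparison. It stood at 0.584 (0.557 to 0.613) against other cells of like UMIs, 1.23 without cluster 4 and 0.757 against clusters 0 to 3. At steady state it stood at 1.91 times (1.81 to 2.01) the other bundle cells.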
